A study of Mus musculus with 12 samples.

Results

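The 30 genes described here encode the voltage-gated sodium and calcium channels of neurons, the hyperpolarization-activated HCN channels, the sodium leak channel Nalcn and the small FGF proteins that bind sodium channels. They were chosen by symbol and matched to 30 of the 43629 gene rows. Gene expression was measured by RNA sequencing of poly(A) RNA in 12 libraries from mouse cortical neuronal cultures, 6 labelled Control and 6 labelled IFNG. By the study's design text, the IFNG neurons were under lasting exposure to interferon-gamma, which a lentivirus carrying Ifng made the cultures produce. Transduction was at 7 days in vitro and harvest 10 days in vitro later. The same treatment text stands on all 12 samples, so the labels do not give the construct, if any, that the Control cultures received. The labels name no strain, no animals and no promoter for the construct. The comparison asks what lasting interferon-gamma exposure does to the expression of these channel genes.

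Voltage-gated sodium channels carry the rising phase of the action potential, and voltage-gated calcium channels turn depolarization into calcium entry that drives transmitter release, dendritic signalling and gene expression. Each is built on a large pore-forming alpha subunit, whose trafficking and gating are set by smaller partners: beta subunits and FGFs for sodium channels, and beta and alpha2delta subunits for high-voltage-activated calcium channels. HCN channels open on hyperpolarization and carry a depolarizing current that steadies the resting potential and rhythmic firing, while Nalcn carries a standing sodium leak.

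Of the 30 genes, 29 had enough counts to be tested. In IFNG libraries 10 of the 29 were lower (Scn1a, Scn2b, Scn3b, Cacna1i, Cacna2d1, Cacnb1, Cacnb4, Hcn4, Fgf12 and Fgf13) and 1 was higher (Cacnb2). Among all 15241 genes tested 9.79% were lower and 14.3% higher, called at a Benjamini-Hochberg adjusted p under 0.05 from the quasi-likelihood F-test of edgeR. The changes were modest: called falls ran from -0.34 for Cacnb1 to -0.64 for Fgf13 on the log2 scale, and Cacnb2 rose by 0.81. The log2 fold change was negative in 24 of the 29 genes, with a median of -0.28, against -0.02 over all genes tested. Fewer neurons in a culture and less channel RNA per neuron cannot be told apart in bulk RNA. With libraries scaled on pan-neuronal markers, 16 of the 29 genes were negative, 1 was lower (Fgf13) and 4 were higher. Under this scaling 397 of all 15241 genes were lower and 4404 were higher. Of 13 genes for the smaller subunits (beta, alpha2delta and FGF) 7 were lower and 1 higher, with a median of -0.40, and -0.17 under the pan-neuronal scaling. Of 16 tested pore-forming genes 3 were lower, with a median of -0.17, which turned to 0.06 under that scaling. The difference between these 2 sets was not tested. In 3 of the 29 genes (Scn2b, Cacnb4 and Fgf13) every IFNG library was below every Control library, as in 4.09% of all genes tested. In Cacnb2 every IFNG library was above every Control library, as in 8.75% of all genes.

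**Figure D1:**
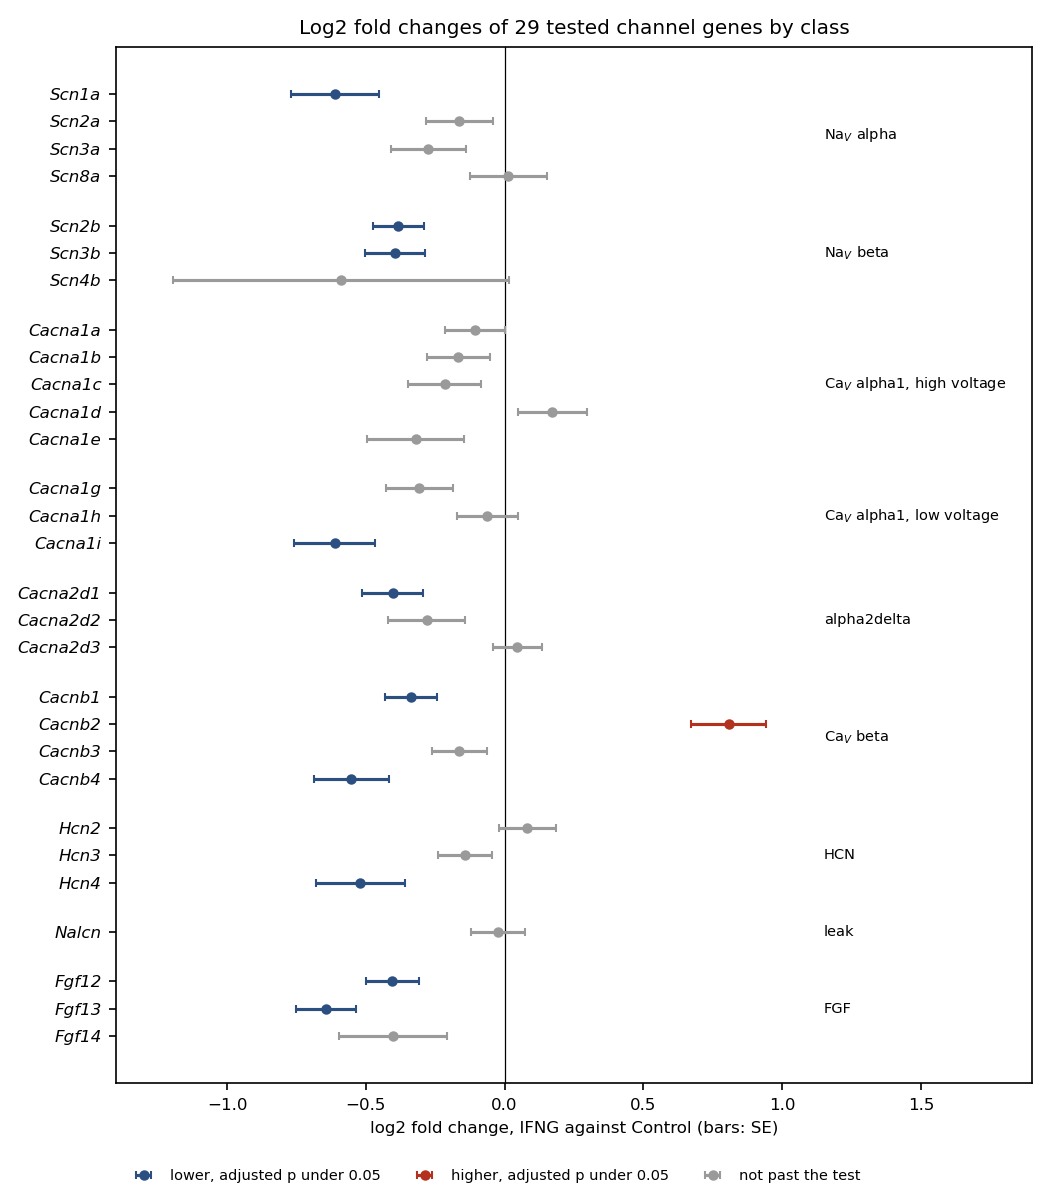
Log2 fold changes of the 29 tested channel genes (IFNG against Control, x axis; bars are SE), grouped by class on the y axis and coloured by whether they passed an adjusted p of 0.05, with TMM scaling of the libraries. Of the 29 points 10 are called lower and 1, Cacnb2 at 0.81, is called higher.

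Libraries held between 13875435 and 34239380 counts. Ifng itself lay between 4.98 and 17.9 CPM (counts on the scale of a fixed library total) in IFNG libraries and between 0 and 0.169 CPM in Control libraries, and the labels of all 12 libraries matched it. Astrocyte markers moved with the comparison: all 16 tested of 18 were higher in IFNG, and the summed level of the list ran from 3643 to 4280 CPM in Control and from 6855 to 13440 CPM in IFNG libraries. Pan-neuronal markers went the other way. Of these 22 genes 12 were lower and none higher, and their summed level ran from 13110 to 14320 CPM in Control and from 11180 to 12410 CPM in IFNG libraries. The 10 microglial markers summed to 8.48 to 14.6 CPM in Control and 12.7 to 22.3 CPM in IFNG libraries, and 1 of the 2 tested, P2ry12, was higher. The 8 endothelial markers summed to 1.65 to 3.45 CPM and 2.33 to 5.80 CPM, and 1 of the 2 tested, Ly6c1, was higher, with 1 count over Control and 310 over IFNG libraries, while Cldn5 was at 0 in all 12. Of 7 tested fibroblast and mural markers 3 were higher and none lower, and that list of 10 summed to 99.1 to 122.9 CPM in Control and 132 to 182 CPM in IFNG libraries. The part of these markers in the channel gene results was not tested beyond the rescaling on the neuronal list. Markers of glutamatergic neurons summed to 1789 to 2125 CPM in Control and 1494 to 1843 CPM in IFNG libraries, and 4 of 12 were lower and 3 higher. IFNG 5 stood apart in the balance of long and short genes. The longest 10% of genes by exon length (at least 9831 bases) lay at a median of -0.38 on the log2 scale from their mean over all libraries in IFNG 5, against -0.01 to 0.11 in the other IFNG libraries. Control 4 was the lowest of its group by the same measure, at -0.08. Of the 29 tested channel genes 14 belong to these longest genes, IFNG 5 was the lowest IFNG library for 19 and Control 4 the lowest Control library for 16. Without both libraries, a comparison chosen after seeing the data, all 10 genes stayed lower, Cacna1g and Cacna2d2 joined them and Cacnb2 was again the gene that was higher.

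The following promoter windows show the start regions of the gene that rose and of a pair of genes that fell, because interferon-gamma acts on many promoters through the GAS element bound by STAT factors. Windows run from 250 bases before to 50 bases after a RefSeq start (GRCm38.p6), 5′ to 3′ on the gene's strand. Capitals mark a match to GAS, searched as TTCNNNGAA, which reads the same on both strands. Cacnb2 is shown with both of its windows, and Scn2b and Cacna1i are shown because, with Fgf12, they are the 3 genes that held a match among the 9 of the 10 lower genes with a window (Scn3b has none).
Cacnb2 (chr2:14604056-14604355, plus strand): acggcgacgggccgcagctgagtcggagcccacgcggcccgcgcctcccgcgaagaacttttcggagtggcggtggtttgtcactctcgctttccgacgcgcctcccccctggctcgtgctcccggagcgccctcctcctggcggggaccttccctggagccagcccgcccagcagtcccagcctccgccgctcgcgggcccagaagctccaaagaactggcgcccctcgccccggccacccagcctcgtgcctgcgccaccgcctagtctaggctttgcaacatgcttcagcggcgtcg
Cacnb2 (chr2:14823842-14824141, plus strand): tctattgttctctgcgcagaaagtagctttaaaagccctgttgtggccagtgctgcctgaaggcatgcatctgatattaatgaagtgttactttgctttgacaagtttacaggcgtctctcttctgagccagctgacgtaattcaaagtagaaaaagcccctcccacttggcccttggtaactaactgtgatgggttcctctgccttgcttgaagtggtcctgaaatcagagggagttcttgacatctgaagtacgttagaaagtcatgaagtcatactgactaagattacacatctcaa
Scn2b (chr9:45117626-45117925, plus strand): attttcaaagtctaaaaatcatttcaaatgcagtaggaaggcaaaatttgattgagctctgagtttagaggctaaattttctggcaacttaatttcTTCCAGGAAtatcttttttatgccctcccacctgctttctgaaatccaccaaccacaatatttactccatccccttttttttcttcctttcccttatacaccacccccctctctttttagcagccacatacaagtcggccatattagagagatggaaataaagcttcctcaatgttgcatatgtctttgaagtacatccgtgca
Cacna1i (chr15:80286988-80287287, plus strand): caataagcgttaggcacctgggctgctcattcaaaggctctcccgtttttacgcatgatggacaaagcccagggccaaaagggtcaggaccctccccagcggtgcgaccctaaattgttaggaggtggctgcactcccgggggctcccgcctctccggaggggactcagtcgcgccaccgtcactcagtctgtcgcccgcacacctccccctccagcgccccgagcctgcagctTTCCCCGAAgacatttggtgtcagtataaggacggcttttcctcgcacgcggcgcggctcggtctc
Neither Cacnb2 window held the GAS letters. Scn2b and Cacna1i, both lower in IFNG, held a match each, but they were picked for display because of it. Fgf12, also lower, held a match, as did Scn2a and Cacna1c, which did not pass, and Scn9a, which was not tested. Over the 24 channel genes with a RefSeq window, 6 of 40 windows held GAS, against 8.29% of 32817 windows of all genes. These letters describe the windows and do not show a bound site. The interferon element ISRE, searched on both strands as GAAA, any 2 bases and GAAA, was in 0 of the 40 windows and in 3.43% of all windows. The cyclic AMP element CRE, searched as TGACGTCA, which reads the same on both strands, was in 0 of the 40 and in 1.79% of all, so no GAS match here overlapped another motif.

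Among sodium channel alpha subunits Scn1a fell, and the 3 others tested did not pass. Scn1a (GRCm38 chromosome 2, 66270778 to 66440840, minus strand) encodes the channel that inhibitory interneurons rely on for fast firing. Its Control libraries ran from 36.2 to 59.3 CPM with a median of 47.5, and its IFNG libraries from 19.7 to 44.8 CPM with a median of 31.3. In 5 of 6 IFNG libraries the level was below the lowest Control library, and the groups overlapped through IFNG 1. The log2 fold change was -0.61 ± 0.16 (SE; adjusted p = 0.00758). Markers of GABAergic neurons moved beside it: 5 of 11 tested were lower and 1 higher, and their summed level ran from 902 to 1294 CPM in Control and from 886 to 1045 CPM in IFNG libraries. Their part in the fall of Scn1a was not tested.

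Scn2a, the main channel of the excitatory axon in early life, was the most abundant of the class per length, at 24.6 ± 2.80 CPM per kilobase of exon in Control and 21.96 ± 4.25 in IFNG libraries. All levels per kilobase and shares are given as mean ± SD over the 6 libraries of a group. In CPM it ran from 279 to 363 in Control and from 189.5 to 335 in IFNG libraries, and the groups overlapped widely. Its log2 fold change was -0.16 ± 0.12 (adjusted p = 0.359), and -0.06 without IFNG 5. Scn3a, the form most abundant before birth, stood at -0.28 ± 0.14 (adjusted p = 0.157), with IFNG 5 far below the rest of its group. Scn8a, the channel of mature axon initial segments and nodes, stood at 0.01 ± 0.14 (adjusted p = 0.960). Per length, Scn2a made up 49.96 ± 2.43% of the alpha subunit RNA in Control and 50.2 ± 2.50% in IFNG libraries. Scn8a made up 24.3 ± 2.53% and 27.7 ± 2.19%, and Scn1a 8.84 ± 1.30% and 6.51 ± 1.01%. Scn9a, a channel of peripheral sensory neurons, had too few counts to be tested: 2 to 32 counts in Control and 4 to 27 in IFNG libraries.

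Both abundant sodium channel beta subunit genes fell. Beta subunits are membrane proteins that set the surface level and gating of the channel and act as adhesion molecules. Scn2b (chromosome 9, 45117782 to 45130070, plus strand) ran from 103 to 124 CPM in Control, with a median of 106, and from 74.5 to 96.5 CPM in IFNG libraries, with a median of 80.6. The groups did not overlap, and the log2 fold change was -0.38 ± 0.091 (adjusted p = 0.00373). Scn3b, expressed early in development, ran from 158 to 238 CPM in Control (median 214) and from 130 to 187 CPM in IFNG libraries (median 157). In 5 of 6 Control libraries Scn3b was above the highest IFNG library, with a log2 fold change of -0.40 ± 0.11 (adjusted p = 0.0108). Scn4b was near the detection limit, at 0 to 1.149 CPM in Control and 0.204 to 0.7735 CPM in IFNG libraries (log2 fold change -0.59 ± 0.61, adjusted p = 0.530).

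The FGFs of this class stay inside the cell, bind the tail of the sodium channel and tune its inactivation. Fgf13, which also binds microtubules, fell the furthest of the 29 genes. Fgf13 (chromosome X, 59062145 to 59568071, minus strand) ran from 99.0 to 121.5 CPM in Control, with a median of 109, and from 59.4 to 94.3 CPM in IFNG libraries, with a median of 66.2. All IFNG libraries lay below all Control libraries, IFNG 3 being the highest of its group. Its log2 fold change was -0.64 ± 0.11 (adjusted p = 0.000152). Fgf12 ran from 99.2 to 124.6 CPM in Control (median 116.5) and from 76.8 to 106.5 CPM in IFNG libraries (median 83.3), with 5 of 6 IFNG libraries below the lowest Control library. Its log2 fold change was -0.40 ± 0.094 (adjusted p = 0.00334). Fgf14, linked in people to an inherited ataxia, was less abundant, at 14.5 to 24.6 CPM in Control and 8.16 to 19.0 CPM in IFNG libraries. Its log2 fold change of -0.40 ± 0.20 carried a wider error than that of Fgf12 and did not pass (adjusted p = 0.151).

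**Figure D2:**
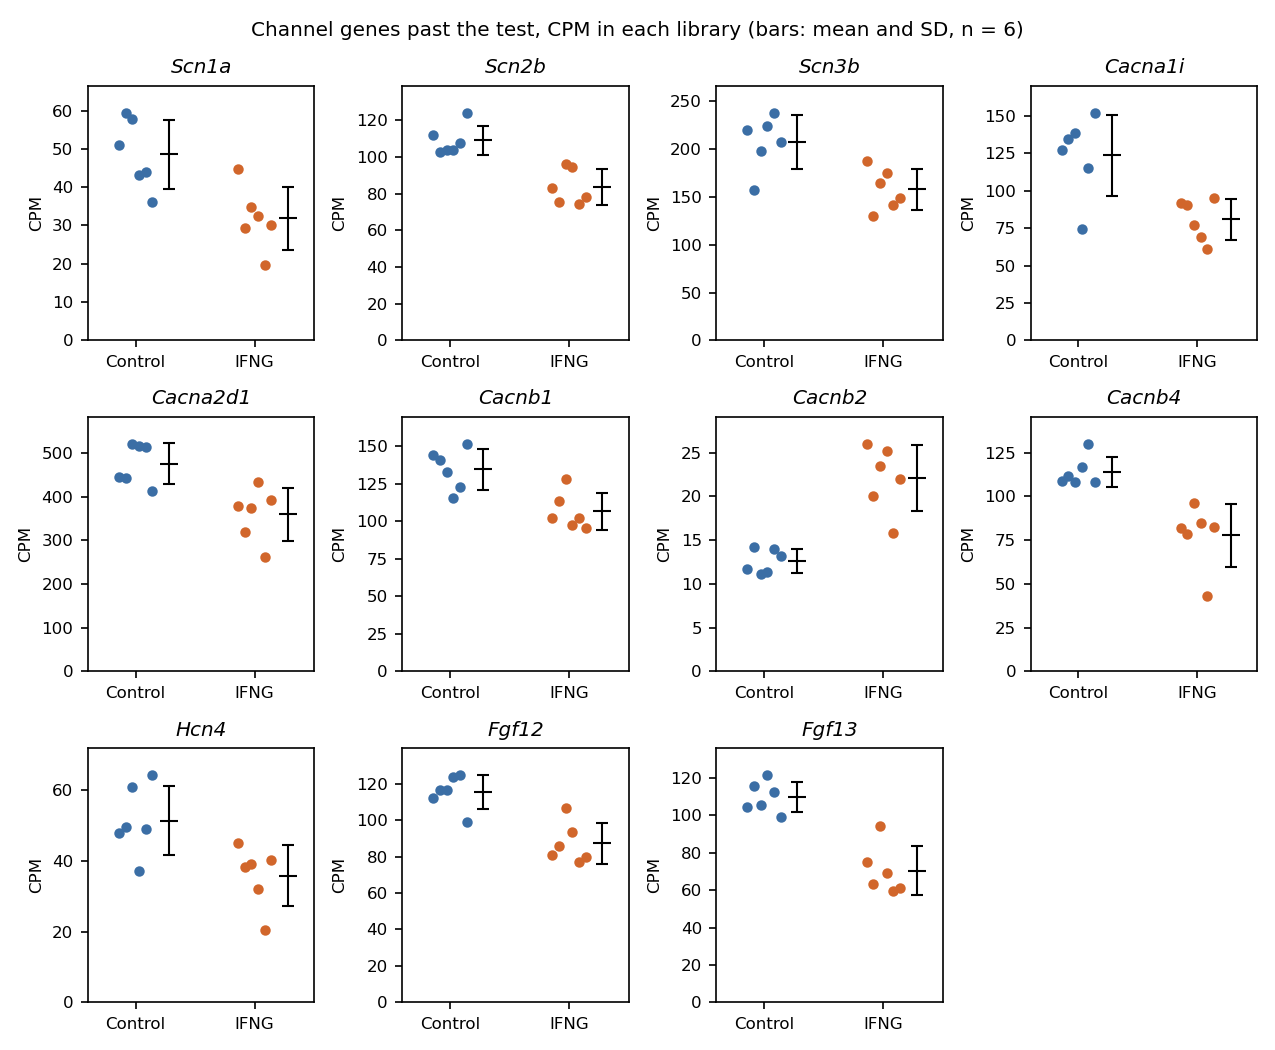
CPM in each library (y axis, from 0) for the 11 channel genes past the test, with Control in blue and IFNG in orange. Bars are mean and SD (n = 6). Scn2b, Cacnb4 and Fgf13 have every IFNG library below every Control library and Cacnb2 has every IFNG library above, while the other 7 genes overlap.

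None of the 5 pore-forming genes of high-voltage-activated calcium channels passed. These are Cacna1a and Cacna1b, which supply calcium for transmitter release, Cacna1c and Cacna1d, the L-type channels that couple activity to gene expression, and Cacna1e, the R-type channel. Their log2 fold changes ran from -0.32 for Cacna1e to 0.17 for Cacna1d. Cacna1e had the most counts of the class in Control and Cacna1a in IFNG libraries. Cacna1e ran at 210 to 351 CPM in Control (median 236) and 110 to 270 CPM in IFNG libraries (median 213). IFNG 5 was its lowest library, and the log2 fold change was -0.32 ± 0.17 (adjusted p = 0.199), or -0.18 without IFNG 5. Per length, Cacna1b and Cacna1a led the class in Control, at 22.5 ± 3.30 and 20.2 ± 3.13 CPM per kilobase, a difference within their spread. In IFNG libraries they stood at 20.0 ± 2.89 and 18.8 ± 2.23 CPM per kilobase.

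Low-voltage-activated, or T-type, calcium channels open near rest and support bursts of action potentials. Of their 3 genes Cacna1i fell. Cacna1i (chromosome 15, 80287238 to 80398279, plus strand) ran from 74.4 to 152 CPM in Control, with a median of 131, and from 61.45 to 95.6 CPM in IFNG libraries, with a median of 83.9. In 5 of 6 Control libraries it was above every IFNG library, and Control 4 was the exception. The log2 fold change was -0.61 ± 0.15 (adjusted p = 0.00382), and -0.71 without Control 4. Cacna1g stood at -0.31 ± 0.12 (adjusted p = 0.0700) and passed without Control 4. Cacna1h, the most abundant of the class, ran from 106 to 174 CPM in Control and from 125 to 162 CPM in IFNG libraries (log2 fold change -0.06 ± 0.11, adjusted p = 0.740). Per length the share of Cacna1i within the class was 34.3 ± 2.50% in Control and 27.6 ± 1.99% in IFNG libraries. That of Cacna1h was 42.2 ± 1.74% and 49.4 ± 2.50%.

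Alpha2delta subunits sit on the outer face of the membrane and bring calcium channels to the synapse. Cacna2d1 is the target of the gabapentinoid drugs. Cacna2d1 (chromosome 5, 15934691 to 16374511, plus strand) was the channel gene with the most counts, at 414 to 519.5 CPM in Control (median 479) and 261 to 434 CPM in IFNG libraries (median 375). In 5 of 6 IFNG libraries it was below the lowest Control library, and IFNG 4 overlapped. The log2 fold change was -0.40 ± 0.11 (adjusted p = 0.0107). Cacna2d3 ran from 111.5 to 153.5 CPM in Control and from 137 to 158 CPM in IFNG libraries, with a log2 fold change of 0.045 ± 0.088 (adjusted p = 0.764). Cacna2d2 stood at -0.28 ± 0.14 (adjusted p = 0.161). Per length, Cacna2d1 made up 63.5 ± 2.14% of the class in Control and 57.1 ± 4.89% in IFNG libraries.

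Calcium channel beta subunits are cytoplasmic proteins that bind the alpha subunit, protect it from degradation and speed its gating. They moved in both directions. Cacnb2 (chromosome 2, 14603088 to 14987908, plus strand), also the main beta subunit of the heart, was the least abundant of the class. It ran from 11.1 to 14.2 CPM in Control, with a median of 12.4, and from 15.9 to 25.95 CPM in IFNG libraries, with a median of 22.7. All IFNG libraries lay above all Control libraries, and the log2 fold change was 0.81 ± 0.13 (adjusted p = 0.00013). Its exons share 7.32% of their bases with antisense and pseudogene models, which held at most 5 counts each over a group. Per length Cacnb2 made up 1.119 ± 0.1145% of the beta subunit RNA in Control and 2.37 ± 0.508% in IFNG libraries.

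Cacnb4, whose loss causes ataxia and seizures in mice, fell. Cacnb4 (chromosome 2, 52428320 to 52676831, minus strand) ran from 108 to 130 CPM in Control (median 110) and from 43.1 to 96.2 CPM in IFNG libraries (median 82.2). The groups did not overlap and IFNG 5 was far below the rest of its group. The log2 fold change was -0.55 ± 0.14 (adjusted p = 0.00512), and -0.42 without IFNG 5 (adjusted p = 0.000709). The antisense gene A430018G15Rik shares 1433 exon bases with Cacnb4, or 16% of them, and held 9 counts over Control and 17 over IFNG libraries. Cacnb1 ran from 115 to 151 CPM in Control (median 137) and from 95.3 to 128 CPM in IFNG libraries (median 102), with a log2 fold change of -0.34 ± 0.094 (adjusted p = 0.0128). Cacnb3, the most abundant of the class per length at 41.8 ± 4.33 CPM per kilobase in Control and 37.3 ± 4.84 in IFNG libraries, did not pass. Its log2 fold change was -0.16 ± 0.098 (adjusted p = 0.249).

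Of the 3 HCN genes Hcn4 fell. Hcn4, the slow pacemaker channel of the sinus node and thalamus, ran from 36.95 to 64.1 CPM in Control (median 49.2) and from 20.3 to 45.0 CPM in IFNG libraries (median 38.6). In 5 of 6 Control libraries it was above every IFNG library, and the log2 fold change was -0.52 ± 0.16 (adjusted p = 0.0228). The call was lost without Control 3, Control 6 or IFNG 4, at adjusted p = 0.0576, 0.0732 and 0.0507. Hcn2, the most abundant of the 3 per length, ran from 98.5 to 120.4 CPM in Control and from 97.9 to 152 CPM in IFNG libraries. Its log2 fold change was 0.08 ± 0.10 (adjusted p = 0.611). Hcn3 stood at -0.14 ± 0.098 (adjusted p = 0.323). The leak channel gene Nalcn ran from 116 to 132 CPM in Control and from 99.5 to 138 CPM in IFNG libraries, with a log2 fold change of -0.02 ± 0.096 (adjusted p = 0.891).

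**Figure D3:**
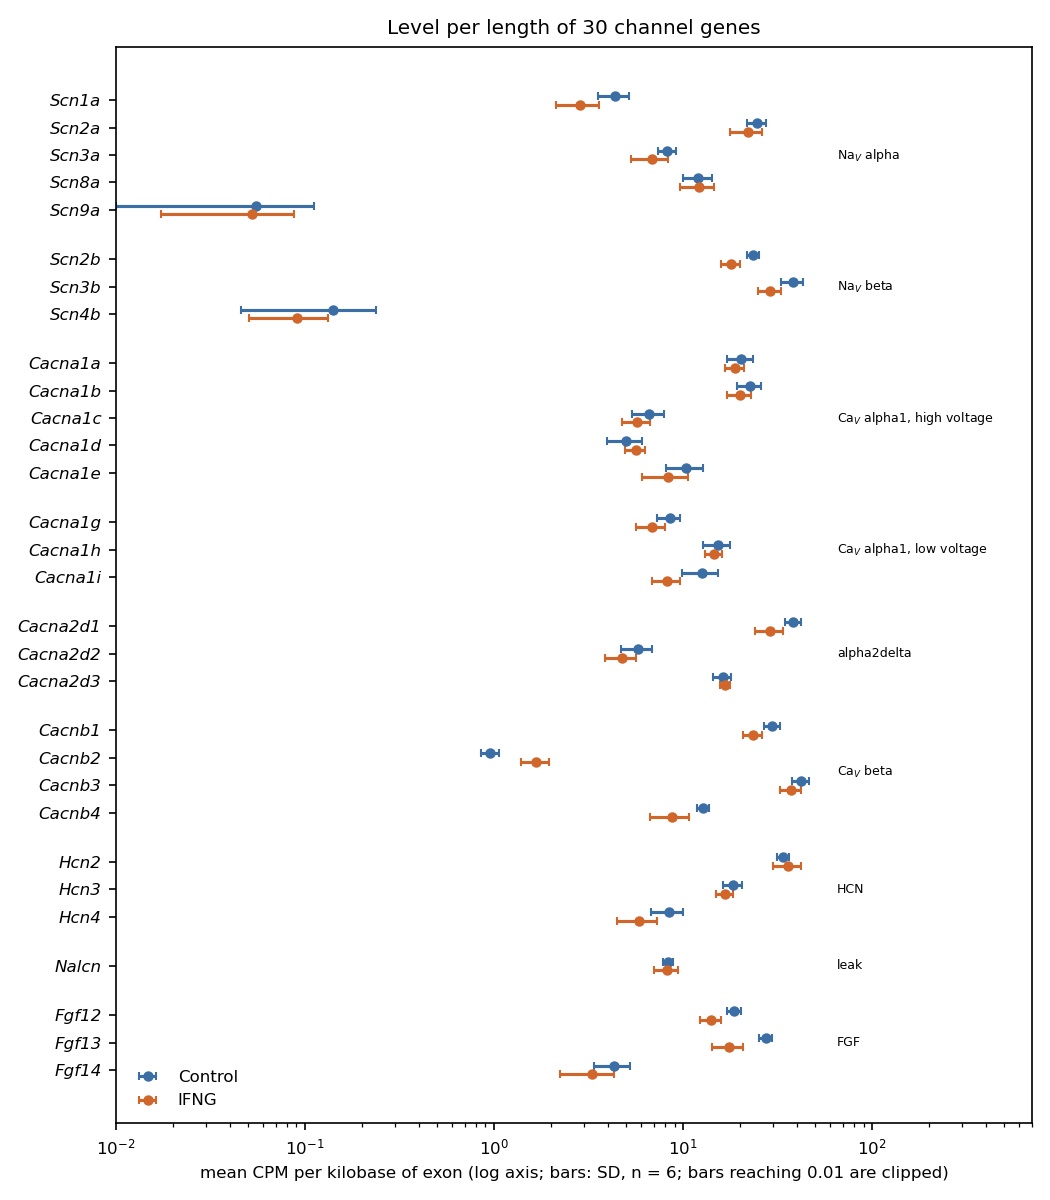
Mean CPM per kilobase of exon for all 30 genes (x axis, logarithmic; bars are SD, n = 6), with Control in blue and IFNG in orange. Scn9a and Scn4b lie far below the rest, and Cacnb2 is the next lowest at 0.952 in Control and 1.67 in IFNG libraries.

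Per kilobase of exon, Cacnb3, Cacna2d1, Scn3b and Hcn2 held the highest levels of the 30 genes in Control, at 41.8 ± 4.33, 38.2 ± 3.77, 38.0 ± 5.13 and 33.9 ± 2.39 CPM per kilobase. The ranges of mean ± SD of neighbours in this order overlapped. In IFNG libraries Cacnb3 and Hcn2 were first, at 37.3 ± 4.84 and 35.9 ± 6.05, followed by Cacna2d1 and Scn3b, both at 28.9, with SDs of 4.91 and 3.94. Exon lengths are unions over all annotated transcripts, so they understate a gene whose neuronal transcripts are short.

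To compare related genes without the scaling between libraries, the counts of 8 pairs were set against each other within each library. All 924 ways to assign the libraries to groups gave an exact permutation p, two-sided, which was adjusted over the 8 pairs by Benjamini-Hochberg. The ratio of the L-type channels differed: Cacna1c was lower relative to Cacna1d in IFNG libraries. The log2 ratio of Cacna1c to Cacna1d was 1.16 ± 0.12 in Control, with a range of 0.98 to 1.32, and 0.76 ± 0.13 in IFNG libraries, with a range of 0.52 to 0.86. The groups did not overlap, and the difference of -0.40 had an exact permutation p of 0.00216, the smallest this design allows (adjusted p = 0.0173). Exons of Cacna1d share 4.67% of their bases with Chdh on the other strand, which held 23 counts over Control and 43 over IFNG libraries. Leaving out each library in turn, the difference ran from -0.44 to -0.35 and the adjusted exact p from 0.0173 to 0.0346.

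The other 7 ratios did not pass. The ratio of Scn8a to Scn3a, a mature against an early sodium channel, was higher in IFNG by 0.31 (exact permutation p = 0.0216, adjusted p = 0.0823). That of Scn1a to Scn3a differed by -0.32, at -1.42 ± 0.23 in IFNG against -1.09 ± 0.23 in Control libraries (exact permutation p = 0.039, adjusted p = 0.0823). Cacnb4 to Cacnb3 differed by -0.42 (exact permutation p = 0.0411, adjusted p = 0.0823), with IFNG 5 at -2.07 and the other 11 libraries between -1.05 and -0.44. Without IFNG 5 that difference was -0.20 (adjusted exact permutation p = 0.128). The remaining differences were 0.01 for Scn2b to Scn3b, 0.07 for Cacna1a to Cacna1b, 0.22 for Fgf14 to Fgf13 and 0.21 for Hcn2 to Hcn3, with adjusted exact p between 0.274 and 0.939. For Hcn2 to Hcn3 IFNG 5 stood at 1.41, and the difference was 0.07 without it (adjusted exact permutation p = 0.566).

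**Figure D4:**
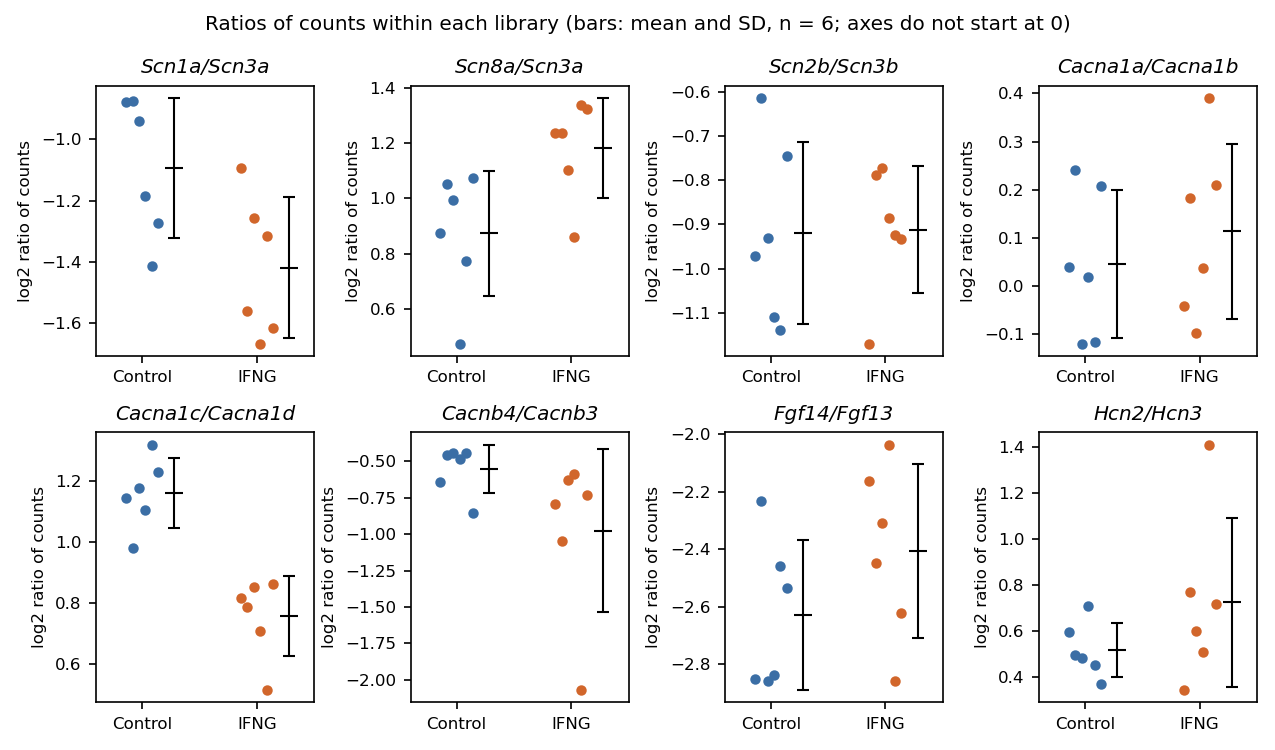
Log2 ratio of the counts of 2 genes within each library (y axis) for 8 pairs, with Control in blue and IFNG in orange; bars are mean and SD (n = 6). For Cacna1c to Cacna1d the Control libraries lie between 0.98 and 1.32 and the IFNG libraries between 0.52 and 0.86, and in the other 7 panels the groups overlap.

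Among other genes of these families, 15 of 19 had enough counts, and 4 were lower and none higher, against 9.79% and 14.3% of all genes. The count was 2 without Control 1 or Control 2. With pan-neuronal scaling 0 were lower and 1 higher, where 397 of all 15241 genes were lower and 4404 higher. Cacng3 and Cacng2, auxiliary subunits of AMPA receptors named for their likeness to a calcium channel subunit, had the smallest p among them. Cacng3 ran from 65.3 to 93.2 CPM in Control and from 50.4 to 71.4 CPM in IFNG libraries (log2 fold change -0.45 ± 0.11, adjusted p = 0.00537). Cacng2 stood at -0.34 ± 0.095 (adjusted p = 0.0128), with groups that did not overlap. Cacng4, named after its values were seen, was also lower, at -0.27 ± 0.087 (adjusted p = 0.0296). The median over the 15 was -0.17, and 0.05 with pan-neuronal scaling.

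Of 22 genes whose proteins anchor, bind or regulate these channels, all tested, 10 were lower and none higher, with a median log2 fold change of -0.30. Among all genes tested 9.79% were lower and 14.3% higher. With pan-neuronal scaling 1 of the 22 was lower and 1 higher, and their median was -0.08. Under that scaling 397 of all 15241 genes were lower and 4404 higher. Calm3, which encodes the calcium sensor calmodulin, ran from 1131 to 1566 CPM in Control and from 969.6 to 1100 CPM in IFNG libraries, with groups that did not overlap (log2 fold change -0.36 ± 0.088, adjusted p = 0.00517). Ank3, which anchors sodium channels at the axon initial segment, was named after its values were seen and stood at -0.33 ± 0.17 (adjusted p = 0.170).

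The pan-neuronal scaling sets channel RNA against the RNA of the pan-neuronal markers. Which cells the channel RNA came from was not tested. With libraries scaled on the summed counts of the 22 pan-neuronal markers in place of TMM, Fgf13 was the 1 channel gene that was lower, at -0.42 ± 0.10 (adjusted p = 0.00401). Cacnb2 rose by 1.03 ± 0.14 under this scaling, and Cacna1d, Cacna2d3 and Hcn2 were also higher, at 0.39, 0.27 and 0.31 (adjusted p = 0.0366, 0.0216 and 0.0408). Scn1a stood at -0.40 (adjusted p = 0.0760), Cacna1i at -0.39 (adjusted p = 0.0579) and Cacnb4 at -0.33 (adjusted p = 0.0650). This scaling moved the median of all genes from -0.02 to 0.21 and that of the channel genes from -0.28 to -0.06. Their distance was -0.27 under both, because a change of library scaling moves all genes by nearly the same amount. An equal distance is therefore built in and is no test of the scaling. Of all genes 4404 were then higher and 397 lower, or 91.7% of calls higher, against 59.4% under TMM.

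**Figure D5:**
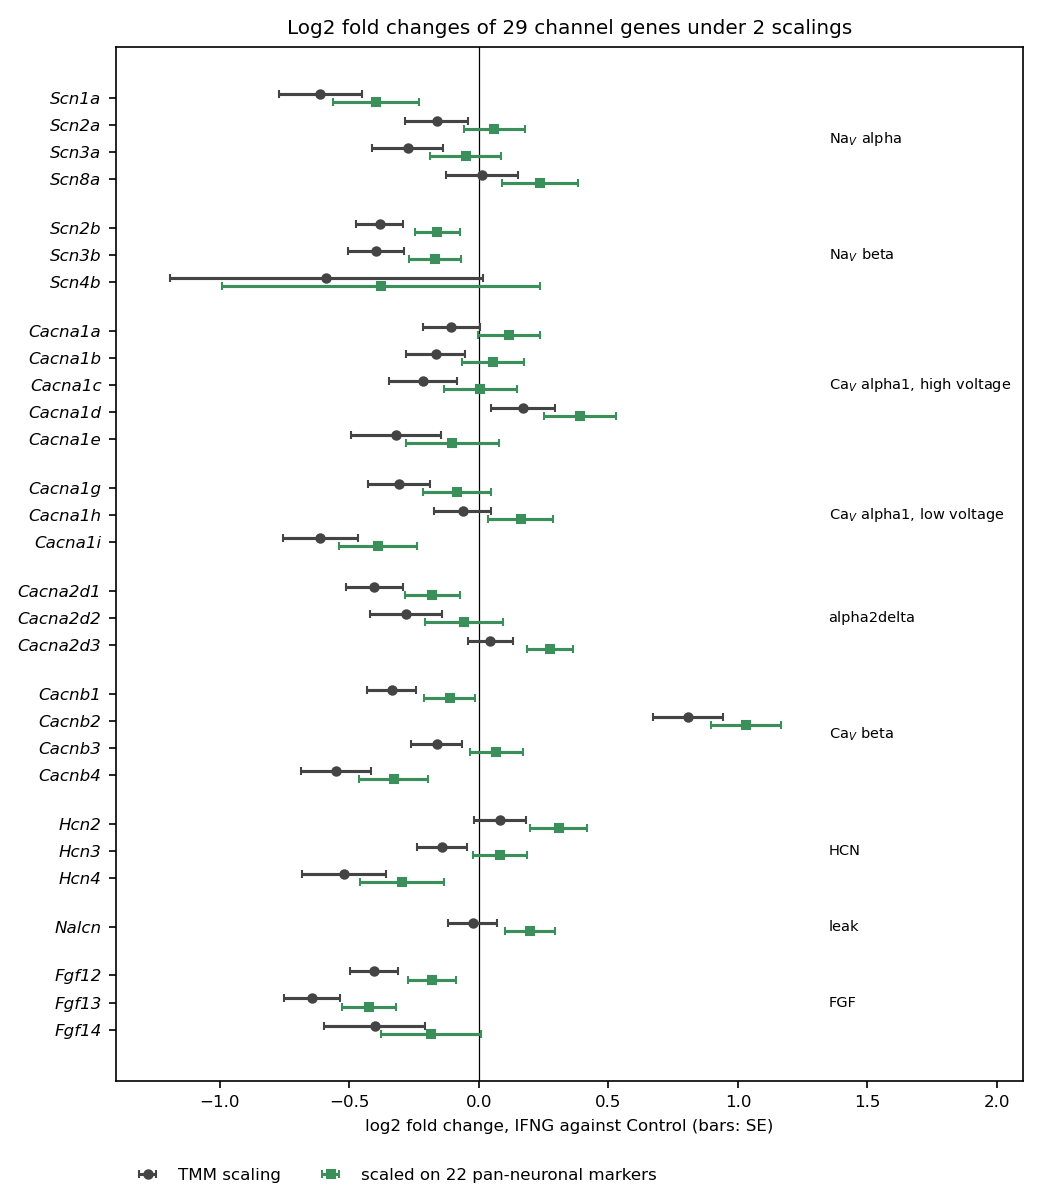
Log2 fold changes of the 29 tested channel genes (x axis; bars are SE) with TMM scaling in black and with libraries scaled on 22 pan-neuronal markers in green. The green points sit to the right of the black ones: Fgf13 at -0.42 is lower and Cacnb2 at 1.03 higher under both scalings.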

How the data were processed

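The authors deposited raw counts per gene, whole numbers with no normalization and 1 column per library. Per the submitters' processing notes, STAR 2.4 and DESeq2 were used with GRCm39 and mm10, in roles that are not stated. No source used here gives the counter, its strand setting or the annotation, so reads where genes overlap on opposite strands are uncertain. Symbols (42462 of 43629 rows matched), exon lengths and coordinates came from GENCODE M21 on GRCm38, and promoter windows from RefSeq.

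IFNG was compared with Control in edgeR 4.0.16 (R 4.3.3): TMM scaling, filterByExpr, two-sided quasi-likelihood F-tests, Benjamini-Hochberg adjustment over 15241 genes, threshold 0.05. Standard errors are the absolute log2 fold change over the square root of F. CPM uses TMM-scaled totals. Ratios used counts plus 0.5. The script was checked on simulated counts. The genes, lists and tests were chosen with earlier results of these data known. Every gene past the test and the most abundant one not past it in each class are named, with up to 2 genes per direction from each further list; results for a few genes are not reported here. Libraries of a group differed by at least 7.04 chi-square units per gene, so all 12 were kept. The labels do not give separate cultures or animals, so p-values reflect differences among these 12 samples that could be technical.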

Additional observations from a re-analysis of the deposited data

Results flagged for a closer look

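In 4 of 70 groups checked, 1 library stood apart from the other 5 of its group in the level of a gene or list, and chance flags about 5% of groups. IFNG 5 was the lowest of its group for Scn3a, at 49.0 CPM with the next library at 83.1, and for Cacnb4, at 43.1 CPM with the next at 78.35. The same library was the highest of its group for Hcn2, at 151.6 CPM with the next at 116.3. Exons of Hcn2 sum to 3195 bases, those of Cacnb4 to 8963 and those of Scn3a to 12459. In IFNG 5 the shortest 10% of genes lay at a median of 0.33 and the longest 10% at -0.38 on the log2 scale from their mean over all libraries. The part of transcript length in these levels was not tested. Control 2 was the lowest of its group for Cacna2d3, at 111.5 CPM with the next at 142.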

How the results depend on the processing

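All 11 called channel genes kept their direction in 23 alternatives. Cacnb2 and Fgf13 kept the call in each of them, and 10 of the 11 kept it with any 1 library left out, the exception being Hcn4. DESeq2 size factors, DESeq2 1.42.0, limma-voom 3.58.1, no filter on low counts and a filter of 1 CPM in 6 samples gave the same 10 lower genes and the same higher gene, and library totals without a composition factor added Cacna1g. On totals without the genes that rose, 6 channel genes were lower (Scn1a, Scn2b, Cacna1i, Cacnb4, Fgf12 and Fgf13), 1 of the other family genes was called, and 2954 of all genes were higher and 750 lower. With libraries scaled on pan-neuronal markers, 1 channel gene was lower and 4 higher, the median of the channel genes was -0.057, 1 other family gene and 2 partner genes were called, and of all genes 4404 were higher and 397 lower. In edgeR's glmTreat against a fold change of 1.2, 4 channel genes were lower (Scn1a, Cacna1i, Cacnb4 and Fgf13), 0 other family genes and 2 partner genes were called, and 458 of all genes were lower. That test asks for a larger change by construction. The cause of the other differences was not tested. With each library left out, the other family genes called ran from 2 to 3 and the ratios that passed from 1 to 2. The first count was 2 without Control 1 or Control 2, and the second was 2 without IFNG 4, where Scn8a to Scn3a also passed (adjusted exact permutation p = 0.026).

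Signs turned in genes that had not passed. With the risen genes left out of the totals, 21 of the 29 tested channel genes were negative, against 24, and Cacna1h stood at 0.047 and Nalcn at 0.085. With pan-neuronal scaling Scn2a stood at 0.06, Cacna1h at 0.16, Cacnb3 at 0.068, Nalcn at 0.20, Cacna1a at 0.12, Cacna1b at 0.055, Cacna1c at 0.006 and Hcn3 at 0.082. Scn4b was 0.082 in limma-voom. Among the called genes and the most abundant uncalled gene of each class, signs turned with 1 library left out in 3: Cacna2d3 ran from -0.015 to 0.081, Hcn2 from -0.003 to 0.123 and Nalcn from -0.058 to 0.037. Without IFNG 5 and Control 4, Hcn2 was -0.028 and Nalcn 0.021. Library numbers are shared between the groups, but the correlations of same-numbered libraries' deviations ran from -0.001 to 0.124, and 2 of 6 Control libraries correlated best with their own number, so the number was not taken as a pairing. With a replicate block 11 channel genes were lower, Cacna1g being added, and 1 higher. In the sign-flip test of the ratios over same-numbered pairs, whose smallest p is 0.0312, 0 ratios passed. The ratio of Cacna1c to Cacna1d had an adjusted exact p of 0.125 in it. After adjustment, a ratio at the smallest p could pass only if most of the other ratios were also at it. The sign-flip test therefore could not decide whether the difference in that ratio holds under pairing. Scn4b and Scn9a were too sparse to show a change of the size seen in other genes.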
